A study of Arabidopsis thaliana with 12 samples.

Results

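Wild type Arabidopsis thaliana seedlings of the accession Columbia (WT) were compared after growth at 23C and at 16C. The comparison uses 6 of the 12 arrays of the series: the 3 arrays titled WT at 23C against the 3 titled WT at 16C, chosen by their titles and not by any measured value. The other 6 arrays hold the mutant pft1-1 at the same temperatures. That mutant carries a lesion in PFT1, a Mediator subunit also known as MED25, whose own level was not analysed here. All seedlings were 10 days old, were grown on MS agar in continuous cool-white light of 80 micromoles per second and square metre, and were harvested whole. Each group has 3 biological replicates with the letters A, B and C, for which RNA was prepared independently, and 1 array per replicate. Growth temperature is the labelled difference. Whole seedlings mix roots, leaves and meristems, and fewer cells of a type and less RNA per cell cannot be told apart in such samples.

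Plants grown a few degrees warmer, without heat stress, change their architecture and flower earlier, a response called thermomorphogenesis. Phytochrome photoreceptors, PIF transcription factors and auxin are known to carry it in the shoot. Cooler growth, without frost, is known to raise dehydrins and other COR genes and, in high light, anthocyanin pigments. Heat shock factors and chaperones follow protein unfolding, which rises with temperature.

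Each value is a log2 level of 1 probe set on 1 array, as deposited by the authors after normalisation between arrays. A difference of 1 on that scale is a doubling. Levels of different probe sets are not set against each other, because each probe set has its own hybridisation strength. The lower quartile of all deposited values was 2.52, and levels near or under it are called close to background. A probe set is called at a limma adjusted p under 0.05, with the adjustment over all 22746 probe sets tested. The number of arrays limits the precision.

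The 6 WT arrays were alike in their medians, at 5.08 to 5.2 at 23C and 5.2 to 5.23 at 16C. The arrays of letter C differed in their poly-A spike-in controls, 24 probe sets for bacterial RNA added during labelling. These averaged 4.84 on the 23C array of letter C and 5.83 on the 16C array of letter C, against 2.46 to 2.54 on the other 4 WT arrays. Both temperatures have 1 such array. The difference between 3′ and 5′ probe sets of 3 control transcripts was 2.73 to 3.86 at 23C and 2.78 to 3.61 at 16C (exact two-sided permutation test, p = 0.800, and 0.960 after Benjamini-Hochberg adjustment over 6 quality and marker measures). With 3 arrays against 3, that test cannot go below 0.1.

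Few probe sets were called, with large changes, and more of them were lower at 23C than higher. At an unadjusted limma p under 0.05 there were 18.7%, so the number called does not measure how many genes responded. Of 22746 probe sets, 1112 were called (4.89%), of which 395 were higher at 23C (1.74%) and 717 were lower (3.15%). The called falls were also larger: their median change was -1.44, against 0.97 for the called rises, and the median over all probe sets tested was 0.02, with 63.7% of them above 0. A change of at least 2 on the log2 scale was found for 42 of the called rises and 211 of the called falls. On all 1112 called probe sets the 3 arrays at 23C lay apart from the 3 arrays at 16C, as they did on 26.0% of all probe sets tested, 15.3% higher at 23C and 10.7% lower. In that count without a test more probe sets lay higher than lower, the opposite balance to the calls. Replicate letters were taken to pair the arrays, on residual correlations alone, and the main fit leaves the letter out. With the letter as a block 1859 probe sets were called, 818 higher and 1041 lower. These included 1065 of the 1112, whose direction the block leaves unchanged. When each array was first centred on its own median, which adds 0.07 to every change, the split was 579 higher and 672 lower.

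The count depended on single arrays. It was 381 without the 16C array of letter B, 443 without the 16C array of letter C, 453 without the 23C array of letter A, 636 without the 23C array of letter B and 692 without the pft1-1 array of letter B at 16C, which enters through the shared estimate of spread. Among the 94 called probe sets that the naming rule or an example here covers, 41 stayed called whichever single array was left out. For 0 did the direction turn, and it could not, since their groups did not overlap. Of the 1112 called probe sets, 595 carried exactly 1 gene, 36 several and 481 none, so the gene groups cover only part of the response. Probe sets with exactly 1 gene were called higher in 1.51% and lower in 2.89% of cases. Of those 595 genes 87 have a symbol, and the remainder have a locus name only, for which no role is given.

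**Figure D1:**
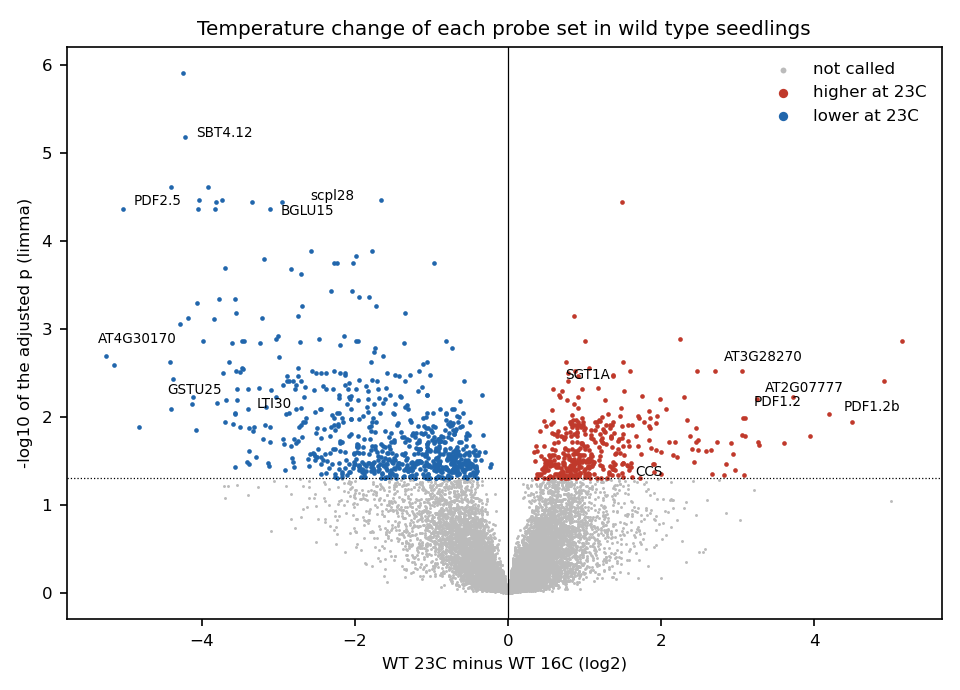
Change of each of 22746 probe sets in WT seedlings, as WT 23C minus WT 16C on a log2 scale (x axis), against -log10 of its limma adjusted p (y axis), with the threshold of 0.05 as a dotted line. The 395 called rises are red, the 717 called falls blue, and the falls reach larger sizes and smaller p-values.

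The largest rises with a gene name were 2 plant defensins. PDF1.2b had log2 levels of 8.70, 10.30 and 10.96 in WT 23C seedlings, against 6.54, 5.01 and 4.93 in WT 16C seedlings. The change was 4.49 (SE 0.71, limma adjusted p = 0.0113), a 22.5-fold rise. PDF1.2, its close relative and a widely used marker of jasmonate and ethylene signalling, had 8.0, 10.0 and 10.23 in WT 23C seedlings, against 6.25, 4.82 and 4.58 in WT 16C seedlings (change 4.19, SE 0.63, limma adjusted p = 0.00939), an 18.3-fold rise. In both genes the groups did not overlap, but letter A stood apart: PDF1.2 changed by 1.75 between the arrays of letter A, by 5.18 between those of letter B and by 5.65 between those of letter C. The sequences of the 2 genes are nearly identical and the PDF1.2b probe set is of a type that can detect several transcripts, so the pair may be 1 signal measured by both.

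Locus-named genes followed, some of them close to background at 16C. AT5G51440 had log2 levels of 6.55, 5.88 and 6.56 in WT 23C seedlings, against 2.74, 2.72 and 2.71 in WT 16C seedlings (change 3.61, SE 0.67, limma adjusted p = 0.0200). AT2G19310 had 8.59, 8.87 and 8.73 in WT 23C seedlings, against 6.49, 6.39 and 6.42 in WT 16C seedlings (change 2.3, SE 0.31, limma adjusted p = 0.00601). AT5G51440 was close to background at 16C and AT2G19310 was well above it, and the groups did not overlap in either gene. AT3G28270 had 9.78, 9.28 and 9.75 in WT 23C seedlings, against 7.61, 6.42 and 6.65 in WT 16C seedlings (change 2.71, limma adjusted p = 0.00302). Of these 3 genes, AT5G51440 lost its call in 3 of the 12 fits that left out 1 array, with adjusted p-values up to 0.0721, and the other 2 kept theirs.

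CCS, the copper chaperone that loads copper into superoxide dismutase, had log2 levels of 10.58, 9.33 and 9.32 in WT 23C seedlings, against 8.33, 7.03 and 7.39 in WT 16C seedlings (change 2.16, SE 0.43, limma adjusted p = 0.0272). Its array of letter A was the highest at both temperatures, and within each letter the rise was 1.93 to 2.3. Of the 20 largest rises with a gene 13 have a locus name only, and the changes of all 20 lay between 2.0 and 4.49. In 15 of the 20 the array of letter A was the highest of the 3 at 23C, against 40.9% of all probe sets tested, and the part of that array in these rises was not tested. The 2 largest rises among probe sets with no gene in the annotation were larger than any named one. Probe set 256245_at had 10.56, 9.45 and 10.00 in WT 23C seedlings, against 5.14, 4.41 and 5.00 in WT 16C seedlings (change 5.15, limma adjusted p = 0.00138). Probe set 248332_at had 9.35, 8.62 and 8.45 in WT 23C seedlings, against 3.76, 4.03 and 3.89 in WT 16C seedlings (change 4.91, limma adjusted p = 0.00396).

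The largest falls were of genes measured well above background at 16C, and 2 of the 20 largest had a 23C mean under 2.52. The 20 largest with a gene had changes from -5.24 to -3.55, with means of 2.45 to 5.23 at 23C and of 5.99 to 8.92 at 16C. AT4G30170 led with log2 levels of 2.73, 4.68 and 3.06 in WT 23C seedlings, against 8.93, 8.85 and 8.43 in WT 16C seedlings (change -5.24, SE 0.56, limma adjusted p = 0.00202). PDF2.5, a plant defensin of another branch than PDF1.2, had 2.4, 2.93 and 2.55 in WT 23C seedlings, against 7.16, 7.78 and 8.02 in WT 16C seedlings (change -5.02, SE 0.29, limma adjusted p = 4.4e-05). SBT4.12, a subtilisin-like serine protease, had 3.46, 3.61 and 3.61 in WT 23C seedlings, against 7.92, 7.53 and 7.86 in WT 16C seedlings (change -4.21, SE 0.16, limma adjusted p = 6.64e-06). The groups in these 3 genes were separated by more than 3 log2 units. Of the 20 falls AT1G73620 lost its call in 9 of the 12 fits without 1 array, and the others kept theirs in all 12. Of the probe sets with no gene, 250541_at fell most, with 2.73, 2.95 and 2.56 in WT 23C seedlings, against 7.42, 7.07 and 6.96 in WT 16C seedlings (change -4.40, limma adjusted p = 2.49e-05), followed by 247765_at with a change of -4.37.

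SBT4.12 was 1 of 3 genes called lower, with 0 higher, among 38 serine proteases and carboxypeptidases (median 0.003), a list formed with these values in view. Over all probe sets 3.15% were called lower and 1.74% higher. The carboxypeptidase-like gene scpl28 had log2 levels of 2.54, 2.78 and 2.79 in WT 23C seedlings, against 4.35, 4.30 and 4.42 in WT 16C seedlings (change -1.65, SE 0.08, limma adjusted p = 3.44e-05), and scpl29 changed by -0.79.

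None of the organ markers measured was called, and few were measured. From 45 root, 49 shoot and 44 seed and pollen names listed, 5, 7 and 8 genes were measured. The 5 root marker genes measured all had negative changes, none called: EXPA18 at -1.73, EXPA7 at -1.24, PYK10 at -0.58, JAL33 at -0.37 and JAL22 at -0.07. Summed on the linear scale, their log2 level was 12.87 to 13.34 at 23C and 13.38 to 13.77 at 16C (exact two-sided permutation test, p = 0.100, the smallest possible, and 0.600 adjusted over the 6 measures). EXPA7 was close to background on every array except the 16C array of letter A, at 5.42. The 7 shoot markers summed to 15.33 to 15.49 at 23C and 15.17 to 15.46 at 16C, and the 8 seed and pollen markers to 10.18 to 10.69 at 23C and 9.96 to 10.36 at 16C, with none called in either list. FMA, a transcription factor of the last step in guard cell formation, had the largest change of the shoot list at 1.7 (limma adjusted p = 0.108, and 0.0189 with the letter as a block). CLV3, a stem cell marker of the shoot apex, and the pollen markers ACT12 and AGL66 were close to background on all 6 arrays. The part of organ proportions in the falls was not tested.

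**Figure D2:**
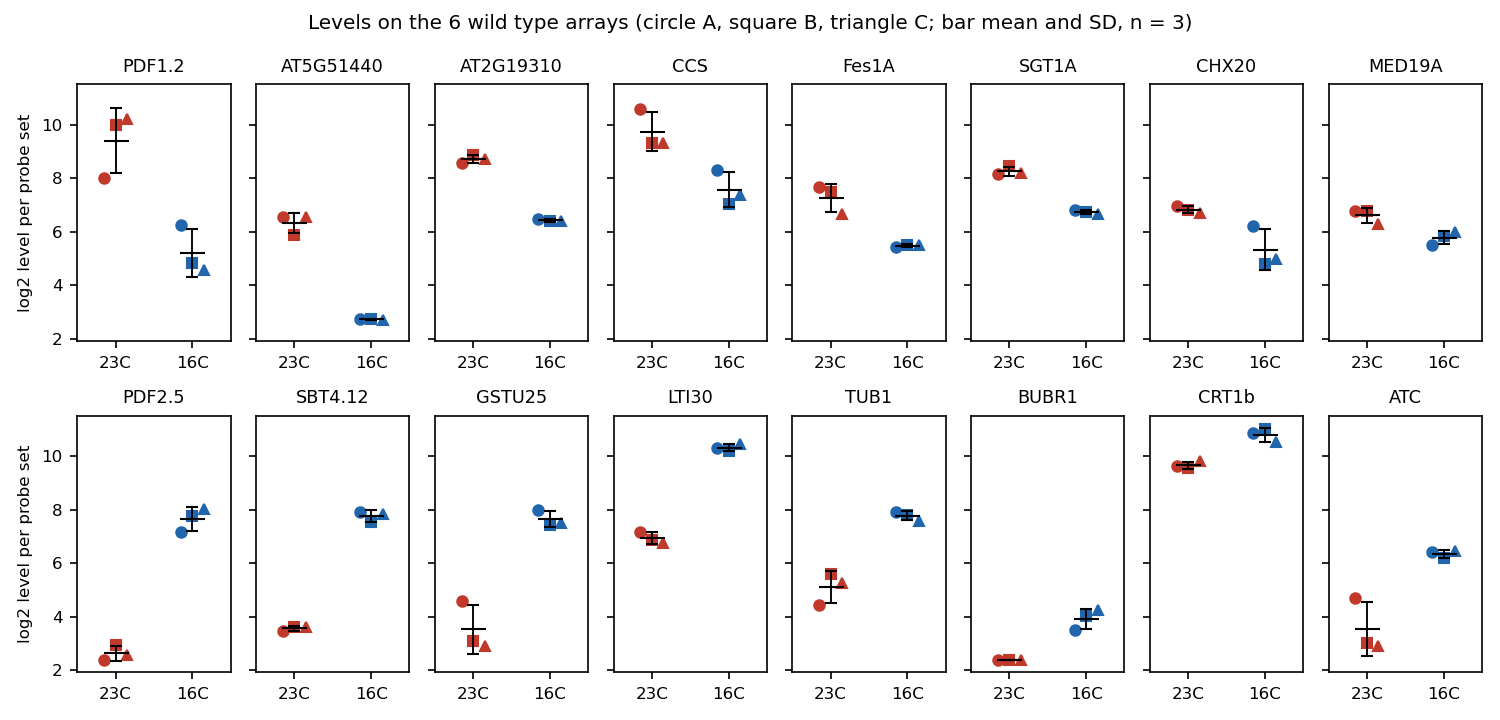
Log2 level per probe set (y axis) on the 3 WT 23C arrays (red, left in each panel) and the 3 WT 16C arrays (blue, right) for 8 genes called higher (upper row) and 8 called lower (lower row), with the mean and SD of 3 arrays as bars. In every panel the groups do not overlap, and PDF1.2, CCS and CHX20 show the array of letter A apart from B and C at 1 or both temperatures.

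Genes of cold acclimation were led by 1 clear fall. LTI30, a dehydrin that binds and protects membranes in the cold, had log2 levels of 7.18, 6.88 and 6.75 in WT 23C seedlings, against 10.31, 10.19 and 10.46 in WT 16C seedlings. The change was -3.39 (SE 0.44, limma adjusted p = 0.00489), so the level was 10.5-fold higher at 16C. The other 5 of the 6 cold-responsive genes measured were not called, and the list's median change was -1.13, against 0.02 for all probe sets. COR15B had 5.01, 6.59 and 7.41 at 23C, against 7.09, 7.86 and 8.76 at 16C (change -1.57, limma adjusted p = 0.223), and its groups overlapped. COR15A, COR47, COR27 and STZ had changes of -1.38, -0.88, 0.31 and 0.91 with limma adjusted p-values of 0.268, 0.237, 0.895 and 0.780. In pft1-1, with arrays of its own, LTI30 changed by -3.40.

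The 21 chaperone genes with a symbol split, 2 called higher and 2 called lower, with a median change of 0.05. Over all probe sets 1.74% were called higher and 3.15% lower. The list was matched by gene symbol. Genes with a locus name only, such as AT5G51440 and AT2G19310 above, could not enter it, so the split does not cover them. Fes1A, a nucleotide exchange factor of cytosolic HSP70 needed for heat tolerance in Arabidopsis, had log2 levels of 7.66, 7.48 and 6.67 in WT 23C seedlings, against 5.44, 5.50 and 5.52 in WT 16C seedlings (change 1.79, SE 0.28, limma adjusted p = 0.0113). SGT1A, a co-chaperone of HSP90 in immunity and heat responses, had 8.15, 8.47 and 8.18 in WT 23C seedlings, against 6.82, 6.76 and 6.68 in WT 16C seedlings (change 1.52, SE 0.20, limma adjusted p = 0.00510). Both rises kept their call in every fit without 1 array. Cpn60beta3, a subunit of the chloroplast chaperonin, had 6.18, 6.5 and 7.0 at 23C, against 7.92, 8.43 and 8.23 at 16C (change -1.63, limma adjusted p = 0.00688). CRT1b, a calreticulin that folds glycoproteins in the endoplasmic reticulum, had 9.65, 9.55 and 9.82 at 23C, against 10.89, 11.03 and 10.52 at 16C (change -1.14, limma adjusted p = 0.0154). Hop3 and Hsp70-2 had changes of 1.93 and 1.37 with groups that did not overlap but limma adjusted p-values of 0.134 and 0.117. With the letter as a block Hsp70-2 passed the test (limma adjusted p = 0.0460).

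Of 15 cell cycle and replication genes 4 were called lower at 23C and 0 higher, against 3.15% lower and 1.74% higher over all probe sets. The other 11 were not called, 13 had negative changes, and the median change was -1.01. TOPII, the topoisomerase that untangles replicated DNA, had log2 levels of 5.2, 5.95 and 6.51 in WT 23C seedlings, against 7.41, 7.94 and 7.84 in WT 16C seedlings (change -1.85, SE 0.40, limma adjusted p = 0.0357). AUR2, an Aurora kinase of mitosis, had 5.24, 5.78 and 6.43 in WT 23C seedlings, against 7.07, 7.60 and 7.73 in WT 16C seedlings (change -1.64, limma adjusted p = 0.0242). The spindle checkpoint genes BUBR1 and BUB3.1 changed by -1.54 and -1.09 (limma adjusted p = 0.00568 and 0.0363). BUBR1 was close to background at 23C, at 2.38 to 2.39, so the size of its fall is bounded by the floor. In all 4 genes the groups did not overlap, and 9 of the 15 lay lower without overlap, against 10.7% of all probe sets. Among the 23C arrays letter A was the lowest in 10 of the 15 genes, against 31.3% of all probe sets tested, and the part of that array in these falls was not tested. With the letter as a block 6 of the 15 were called lower, AUR3 and PRL being added. The calls depended on single arrays, with 1 of the 4 left without the 16C array of letter B, without the 16C array of letter C, or without the 23C array of letter A or B. Root and shoot meristems both divide, the root marker sums given above were lower at 23C, and their part in these falls was not tested.

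Histone and cytoskeletal genes were called in small numbers. HTB11, a histone H2B, had log2 levels of 8.46, 8.93 and 8.80 in WT 23C seedlings, against 9.43, 10.32 and 10.01 in WT 16C seedlings (change -1.19, limma adjusted p = 0.0198), the 1 gene called among 17 histone and chromatin genes. HTB1 and HIS1-3, a linker histone known to respond to drought, had changes of -1.13 and 1.96 with limma adjusted p-values of 0.0600 and 0.0502, and of 0.0477 and 0.0411 with the letter as a block. Of 13 cytoskeletal genes 3 were called lower, against 3.15% of all probe sets. TUB1, a beta-tubulin, had 4.43, 5.59 and 5.28 in WT 23C seedlings, against 7.94, 7.81 and 7.60 in WT 16C seedlings (change -2.68, SE 0.42, limma adjusted p = 0.0115). KINESIN-12B, a motor of the phragmoplast that builds the new cell wall, and ACT11, an actin, changed by -1.85 and -0.66 (limma adjusted p = 0.0415 and 0.0428). Each of these 2 lost its call in 8 of the 12 fits without 1 array. Among the 23C arrays letter A was the lowest in 9 of the 13 genes, against 31.3% of all probe sets tested. The part of that array in these falls was not tested. TUA1, an alpha-tubulin of pollen, had the highest change of the list, at 1.37, and was not called (limma adjusted p = 0.166, and 0.0410 with the letter as a block). TUB6 and TUB9 differed by 0.21 and -0.12, with overlapping groups.

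Cell wall genes were called in the downward direction alone, 7 of 77, against 3.15% lower among all probe sets. Their median change was -0.03, so the bulk of the list was centred like the whole array. Of these 7, 5 are TBL genes, a family whose studied members acetylate wall polysaccharides. TBL39 had log2 levels of 3.13, 4.57 and 4.79 in WT 23C seedlings, against 6.87, 7.18 and 7.22 in WT 16C seedlings (change -2.93, SE 0.54, limma adjusted p = 0.0206), and TBL38, TBL41, TBL35 and TBL30 changed by -1.24 to -0.88. HRGP1, a hydroxyproline-rich glycoprotein of the wall, had 3.43, 3.11 and 3.13 in WT 23C seedlings, against 7.33, 5.14 and 5.88 in WT 16C seedlings (change -2.89, limma adjusted p = 0.00939), on a probe set of a type that can detect several transcripts. XTH19, an enzyme that cuts and rejoins xyloglucan, had 5.79, 6.73 and 6.26 in WT 23C seedlings, against 8.36, 7.41 and 7.62 in WT 16C seedlings (change -1.54, SE 0.36, limma adjusted p = 0.0441). It stayed called in 1 of the 12 fits without 1 array. Without the 23C array of letter A, 1 of the 7 calls was left. Of the expansins, which loosen walls, EXPB1 had the smallest adjusted p, with a change of -1.77 (limma adjusted p = 0.0552, and 0.0411 with the letter as a block). With that block 11 cell wall genes were called lower and 2 higher, the 2 being EXGT-A3 and TBL25, with changes of 1.38 and 1.04.

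Among nuclear genes of carbon metabolism and respiration, a list drawn up from gene symbols with values of these data in view, 6 of 34 probe sets were called lower and 0 higher, against 3.15% lower and 1.74% higher over all probe sets. The other 28 were not called, 14 of the 34 had positive changes, and the median was -0.14. NDB2, an alternative NADH dehydrogenase on the outer face of the inner mitochondrial membrane, had log2 levels of 5.33, 5.74 and 4.96 in WT 23C seedlings, against 7.09, 6.62 and 6.63 in WT 16C seedlings (change -1.44, SE 0.31, limma adjusted p = 0.0354). ACLA-2 and ACLB-1, subunits of the cytosolic ATP-citrate lyase that makes acetyl-CoA, changed by -1.26 and -0.58 (limma adjusted p = 0.0159 and 0.0426), ACLB-1 losing its call with the letter as a block (limma adjusted p = 0.0548). CYTC-1, a cytochrome c, MAB1, a subunit of mitochondrial pyruvate dehydrogenase, and LTA3, also a pyruvate dehydrogenase subunit, changed by -0.71, -0.54 and -0.52. The 3 succinate dehydrogenase subunits SDH1-1, SDH2-1 and SDH2-2 had changes of -0.70, -0.62 and -0.62 with groups apart and limma adjusted p-values of 0.0624, 0.0696 and 0.184. Another probe set of SDH2-1 was close to background. Without the 16C array of letter B, 0 of the 6 calls were left. PPDK and ICL, enzymes of gluconeogenesis and the glyoxylate cycle, ran upward by 1.86 and 1.37 without passing the test (limma adjusted p = 0.0776 and 0.173). With the letter as a block PPDK passed it (limma adjusted p = 0.0200).

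Of 23 probe sets for 16 genes encoded in the mitochondrion 5 were called higher and 0 lower, against 1.74% higher and 3.15% lower over all probe sets. The other 18 were not called, 19 had positive changes, and the median was 0.60. Nad9, a subunit of respiratory complex I, had log2 levels of 5.81, 4.75 and 5.24 in WT 23C seedlings, against 2.88, 2.64 and 3.0 in WT 16C seedlings. That change of nad9 was 2.43 (SE 0.51, limma adjusted p = 0.0327). A probe set of nad1, another complex I subunit, had 6.14, 4.75 and 5.05 in WT 23C seedlings, against 2.38, 2.41 and 2.4 in WT 16C seedlings (change 2.92, SE 0.54, limma adjusted p = 0.0197). For ccb452, a gene of cytochrome c maturation, the levels were 7.47, 6.41 and 6.46 in WT 23C seedlings, against 2.78, 4.16 and 4.24 in WT 16C seedlings (change 3.05, SE 0.53, limma adjusted p = 0.0161). The nad1 probe set was close to background on all 3 arrays at 16C, and the groups did not overlap in any of these genes.

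The mitochondrial probe sets did not move as a block. Nad4L rose by 2.0 (limma adjusted p = 0.0450) and a second nad1 probe set by 0.65 (limma adjusted p = 0.0155), while nad4, nad6 and ccb382 had changes of -0.39, -0.03 and -1.85, none called. For ccb382 the fall was similar within each letter, and with the letter as a block it passed the test (limma adjusted p = 0.0106). The 7 probe sets of nad1 ranged from 0.01 to 2.92. Of the 23 mitochondrial probe sets 5 were close to background at both temperatures. Whether regions of the nad1 transcript differed was not tested. Array A was the highest of the 3 at 23C in 17 of the 23 probe sets, against 40.9% of all probe sets tested. The count of 5 was 1 without the 16C array of letter B, the 16C array of letter C or the 23C array of letter A. The poly-A spike-ins and the 3′ to 5′ differences overlapped between the temperatures, but neither measures a mitochondrial transcript. Whether the labelling of the mitochondrial transcripts differed was not tested.

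Loci of chromosome 2 that carry a copy of mitochondrial DNA held a few large rises. Of 34 probe sets 3 were called higher and 0 lower, against 1.74% and 3.15% of all probe sets. Positive changes were found for 30, and the median was 0.06. AT2G07777 had log2 levels of 6.45, 5.28 and 4.76 in WT 23C seedlings, against 2.63, 2.13 and 1.97 in WT 16C seedlings (change 3.25, SE 0.45, limma adjusted p = 0.00619). AT2G07718 and AT2G07707 rose by 2.73 and 2.49 (limma adjusted p = 0.0193 and 0.0183). Sequence shared between nucleus and mitochondrion means that a probe set of either may detect transcripts of both. Of 69 plastid-encoded probe sets 0 were called by limma, and 0 had an unadjusted limma p under 0.05. Positive changes were found for 16 of the 69, and the median was -0.23. Their changes ran from -0.86 in rps16 to 0.55 in psbE. After centring on array medians 23 of the 69 were positive, and after renewed quantile normalisation 19. Among the 23C arrays letter A was the lowest in 50 of the 69, against 31.3% of all probe sets tested. The part of that array in the plastid changes was not tested. In pft1-1 the median of the 69 was 0.17, of the opposite sign.

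**Figure D3:**
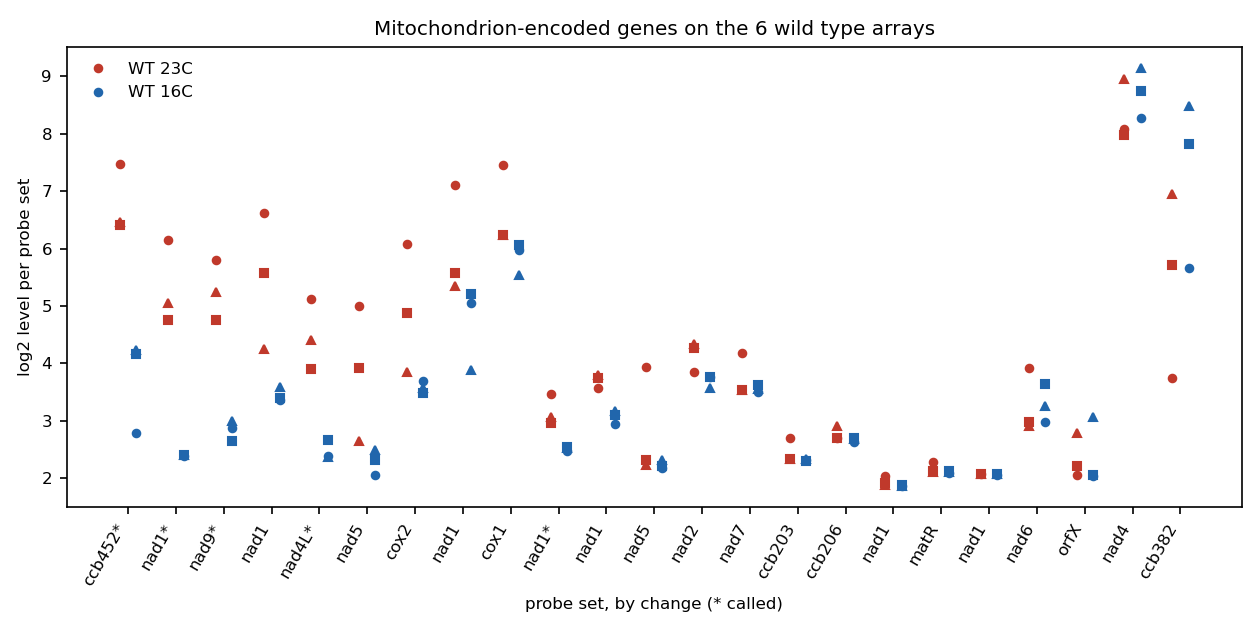
Log2 level (y axis) of the 23 probe sets of mitochondrion-encoded genes, ordered by change from the largest rise (x axis), on the WT 23C arrays (red) and the WT 16C arrays (blue), with circle, square and triangle for the letters A, B and C. The 5 probe sets marked with * were called higher, and nad4 and ccb382 at the right end had negative changes.

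Defence and detoxification families held both directions. Among 15 defensins and small cysteine-rich peptides, a list formed with these values in view, PDF1.2 and PDF1.2b rose and PDF2.5 and LCR68 fell, with a median of 0.01. LCR68, also a defensin, had log2 levels of 9.74, 10.30 and 10.31 in WT 23C seedlings, against 11.35, 11.47 and 11.28 in WT 16C seedlings (change -1.25, limma adjusted p = 0.0455). It lost the call in 10 of the 12 fits without 1 array. PDF1.2 and PDF1.2b were the 2 called genes among 9 measured jasmonate genes, and 4.89% of all probe sets were called. The jasmonate transcription factors MYC3 and MYC4 and the synthesis gene OPCL1 differed by -0.06, 0.13 and 0.15, with overlapping groups. Of 11 salicylate and immunity genes 1 was called, PUB23, a ubiquitin ligase that dampens immunity, which fell by 0.97 on the log2 scale (limma adjusted p = 0.0170).

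Of 14 glutathione S-transferases, enzymes that conjugate glutathione to reactive compounds, 3 of the tau class were called lower, against 3.15% of all probe sets. GSTU25 had log2 levels of 4.58, 3.09 and 2.90 in WT 23C seedlings, against 7.98, 7.45 and 7.51 in WT 16C seedlings (change -4.12, SE 0.58, limma adjusted p = 0.00715). GSTU22 had 4.08, 3.21 and 3.41 in WT 23C seedlings, against 7.17, 6.08 and 6.27 in WT 16C seedlings (change -2.94, limma adjusted p = 0.00440). GSTU26, next to GSTU25 in the TAIR10.1 gene order, changed by -2.60 (limma adjusted p = 0.0357). Tandem copies of this kind are similar in sequence, and their probe sets may share signal. The other 11 members ranged from -0.87 to 0.78. Prx37, a class III peroxidase, changed by -2.44 (limma adjusted p = 0.00823), and its neighbour AT4G08780 by -2.50.

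Enzymes that modify small molecules were mixed. Of 69 UDP-glycosyltransferases and beta-glucosidases 2 were called higher and 2 lower, against 1.74% and 3.15% of all probe sets, with a median of 0.01. BGLU15, a beta-glucosidase, had log2 levels of 3.14, 3.65 and 3.64 in WT 23C seedlings, against 6.46, 6.48 and 6.80 in WT 16C seedlings (change -3.10, SE 0.18, limma adjusted p = 4.4e-05). UGT76B1, which glucosylates the immune regulator isoleucic acid, changed by -1.88 (limma adjusted p = 0.0178). UGT84A3, which makes sinapate esters, and UGT85A5 rose by 1.74 and 1.68 (limma adjusted p = 0.0261 and 0.0164). Of 24 cytochrome P450 genes 2 were called higher, against 1.74% of all probe sets. CYP71B24 rose by 1.87 and CYP71B5 by 1.49 (limma adjusted p = 0.0225 and 0.0432). In the P450 list 21 had positive changes, 9 of the 24 being close to background at both temperatures. UGT84A3 was also the 1 call among 14 phenylpropanoid genes.

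No gene of anthocyanin and flavonoid synthesis was called. DFR, an enzyme of anthocyanin synthesis, had log2 levels of 2.49, 5.50 and 6.68 in WT 23C seedlings, against 7.72, 7.21 and 7.23 in WT 16C seedlings (change -2.50, SE 1.09, limma adjusted p = 0.262). The glycosyltransferase UF3GT had 2.42, 4.15 and 5.23 in WT 23C seedlings, against 6.76, 6.47 and 6.67 in WT 16C seedlings (change -2.70, limma adjusted p = 0.139). In both genes the groups did not overlap, with the 23C array of letter A the lowest and close to background. Of the 5 genes of the list 0 were called by limma, and 2 had an unadjusted limma p under 0.05. UGT78D1 and UGT78D2, which glycosylate flavonols, and BAN, of tannin synthesis, had changes of -0.52, -0.50 and 0.01 with overlapping groups.

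Transport and calcium signalling genes held few calls, and 4.89% of all probe sets were called. CHX20, a cation exchanger of guard cells, had log2 levels of 6.96, 6.83 and 6.71 in WT 23C seedlings, against 6.20, 4.79 and 4.99 in WT 16C seedlings (change 1.51, SE 0.32, limma adjusted p = 0.0332), the 1 call among 8 transporters. GLR2.7, a glutamate receptor-like channel, rose by 1.43 (limma adjusted p = 0.0453), and IQD30, a calmodulin-binding protein, fell by 0.70 on the log2 scale (limma adjusted p = 0.0383), the 2 calls among 30 calcium signalling genes. CHX20 lost its call in 7 of the 12 fits without 1 array, and GLR2.7 and IQD30 in 10 each. In the iron and nutrient list CCS was the 1 call of 5. BHLH101, a transcription factor of iron deficiency, had 8.71, 4.64 and 5.65 in WT 23C seedlings, against 5.16, 2.34 and 2.42 in WT 16C seedlings (change 3.03, SE 1.04, limma adjusted p = 0.148). Letter A of BHLH101 was high at both temperatures, the overall ranges overlapped, and the rise within each letter was 2.3 to 3.55. With the letter as a block its adjusted p was 0.0511.

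Regulators of flowering and development gave 1 fall. ATC, a homologue of TERMINAL FLOWER 1 that delays flowering in Arabidopsis, had log2 levels of 4.70, 3.03 and 2.91 in WT 23C seedlings, against 6.42, 6.18 and 6.46 in WT 16C seedlings (change -2.81, SE 0.59, limma adjusted p = 0.0325). It was the 1 call among 11 flowering genes and lost the call in 7 of the 12 fits without 1 array. SNZ and SMZ, AP2-type repressors of flowering, had changes of 0.77 and -0.05, and the clock gene GI had -0.42, with none called. MED19A, a Mediator subunit, rose by 0.83 (limma adjusted p = 0.0307) and lost the call in 6 of the 12 fits. DI21, a drought-induced gene, fell by 1.57 on the log2 scale (limma adjusted p = 0.0397), the 1 call among 4 abscisic acid genes. That call was lost in 9 of the 12 fits. Of 52 ubiquitin and autophagy genes 3 were called, a share near the 4.89% of all probe sets: UBP20 and ATL4H, with changes of 0.37 and 0.38, and PUB23. UBP20 and ATL4H each lost the call in 10 of the 12 fits.

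Called genes known through a synonym in the gene table were singled out after their values were seen. AT2G46140, with the synonym LEA27 (late embryogenesis abundant), had log2 levels of 2.42, 3.05 and 3.29 in WT 23C seedlings, against 6.93, 6.16 and 6.09 in WT 16C seedlings (change -3.47, limma adjusted p = 0.00138). AT3G13610 is F6'H1, the enzyme of coumarin synthesis, and had 3.57, 2.18 and 2.19 in WT 23C seedlings, against 6.26, 6.48 and 5.39 in WT 16C seedlings (change -3.40, limma adjusted p = 0.00820). AT5G66390 is PRX72, a peroxidase, and changed by -2.74 (limma adjusted p = 0.0190). AT3G23090 is WDL3, a microtubule-associated protein of hypocotyl growth, and changed by -2.33 (limma adjusted p = 0.0167). AT3G21670 is NPF6.4, a nitrate transporter, and rose by 1.37 (limma adjusted p = 0.0322).

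Many groups held no called gene. None was called among 22 nuclear photosynthesis genes (median 0.05), 18 auxin genes (0.01) and 21 starch and sugar probe sets (0.01). The same held for 18 WRKY, NAC, MYB and ERF factors (0.24), 21 organelle RNA editing and processing factors (0.19) and 16 RNA splicing and RNA-binding genes (0.09). Close to background at both temperatures were 10 of the 18 auxin and 8 of the 21 starch and sugar probe sets. A change in these could be missed. The lists for gibberellin and brassinosteroid (5 genes), glucosinolates (8), ethylene and cytokinin (5), the clock (4), warm elongation and light signalling (2) and cytosolic translation (2) likewise gave 0 calls, with limma at an adjusted p under 0.05. At an unadjusted limma p under 0.05 there were 1 photosynthesis, 1 auxin, 3 starch and sugar, 4 WRKY to ERF, 4 editing and 2 splicing genes, against 18.7% of all probe sets. IAA18, an auxin response repressor, was called with the letter as a block (change 0.75, limma adjusted p = 0.0391). PIF4, HSP101 and FT, known genes of the warm response, were not analysed here. The reference genes GAPC2, TUB6 and PEX4 had changes of 0.09, 0.21 and -0.11.

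**Figure D4:**
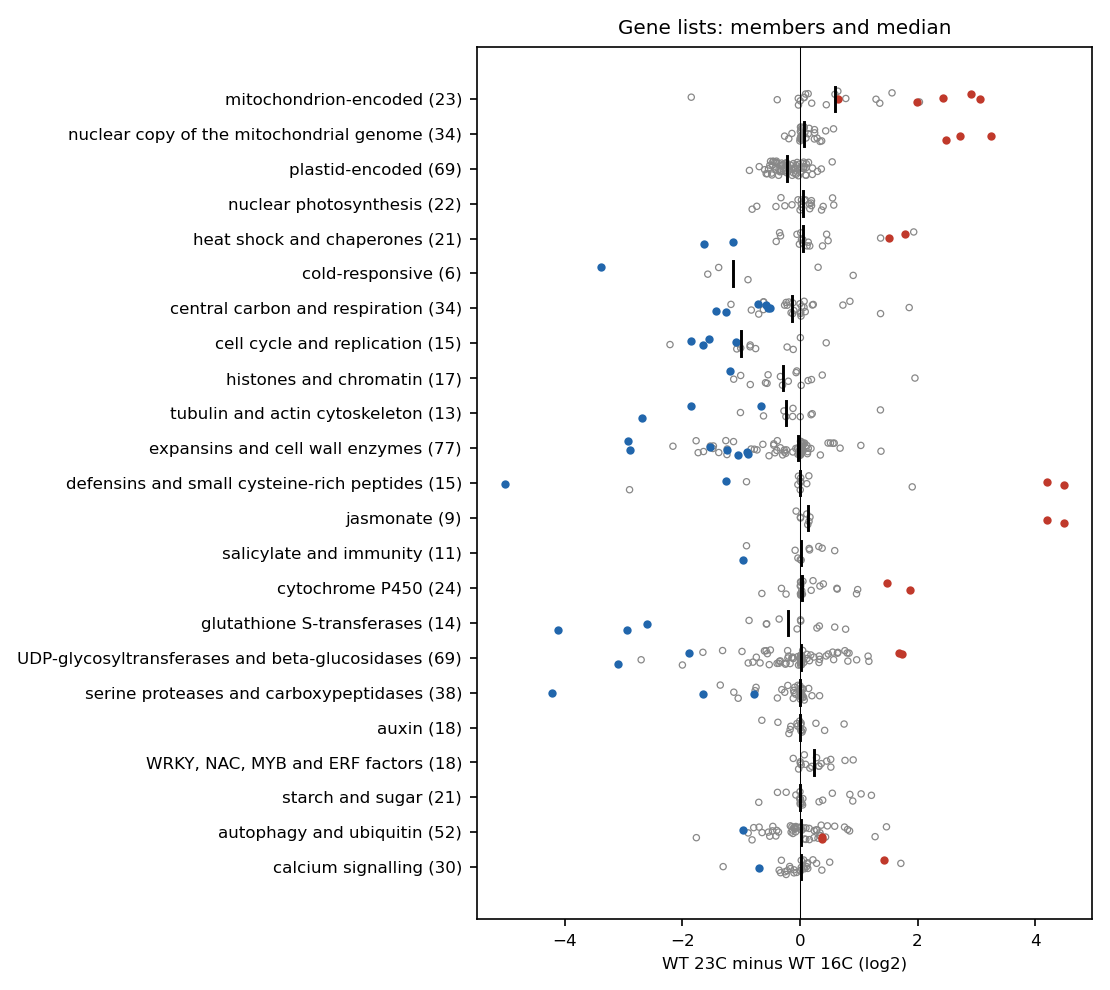
Change of each measured member, WT 23C minus WT 16C on a log2 scale (x axis), for 23 gene lists (rows, with the number of probe sets in brackets). Filled red points were called higher, filled blue points called lower, open points not called, and the black bar is the list's median; mitochondrion-encoded genes lie to the right and cell cycle and cold-responsive genes to the left of 0.

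The same temperature contrast in pft1-1, on 6 separate arrays, gave the WT changes a second reading. The pft1-1 arrays of letter C had spike-in means of 8.68 at 23C and 9.51 at 16C, above those of the WT arrays of letter C. That 23C array also had the largest 3′ to 5′ difference of the 12, at 4.53, and the lowest array quality weight, at 0.15. In pft1-1 4023 probe sets were called (17.7%), 1914 higher (8.41%) and 2109 lower (9.27%). Of the 395 WT rises 324 were called higher in pft1-1 too, which is 82.0% of the WT list and 16.9% of the pft1-1 list. Of the 717 WT falls 626 were called lower in pft1-1 too, which is 87.3% of the WT list and 29.7% of the pft1-1 list. The median change of the WT rises was 0.97 in WT and 0.99 in pft1-1, and that of the WT falls was -1.44 in WT and -1.55 in pft1-1. The contrasts share no arrays, but they share the letters and the pooled spread. All 20 of the largest WT falls and 18 of the 20 largest WT rises were called the same way in pft1-1.

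The 2 exceptions were the defensins. PDF1.2b changed by 4.49 in WT and by -0.96 in pft1-1 (SE 0.71), and PDF1.2 by 4.19 in WT and by 0.08 in pft1-1 (SE 0.63). The difference of the changes was 5.45 (SE 1.0, limma adjusted p = 0.368) for PDF1.2b and 4.11 (SE 0.89, limma adjusted p = 0.517) for PDF1.2. XTH19 changed by -1.54 in WT and by -4.83 in pft1-1, with a difference of 3.29 (limma adjusted p = 0.285). By limma 0 probe sets passed the test of the difference at an adjusted p under 0.05, and 1259 (5.54%) had an unadjusted p under 0.05. No gene is therefore shown here to respond to temperature differently in WT.

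**Figure D5:**
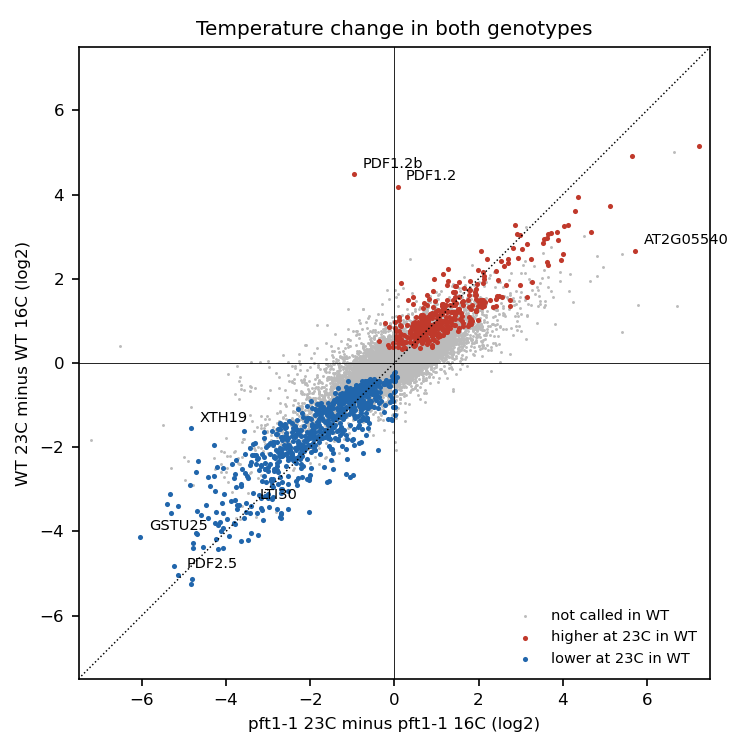
Temperature change in WT (y axis) against that in pft1-1 (x axis), both as 23C minus 16C on a log2 scale, for 22746 probe sets, with equality as a dotted line. Probe sets called in WT are coloured, 708 of the 717 falls and 387 of the 395 rises have the same sign in pft1-1, and PDF1.2 and PDF1.2b stand apart near 0 on the x axis.

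Within WT, the 3 letters gave similar changes for the called genes. The called rises had median changes of 0.95, 1.05 and 0.97 within letters A, B and C, and the called falls of -1.44, -1.42 and -1.32. These letters were all used in making the calls, so this describes the called set and does not test it. Of 5845 neighbouring pairs in the TAIR10.1 gene order with both genes measured, 15 had both called and 549 had 1 called. Of the 13333 genes measured there, 590 were called. The number of pairs expected from that share was not computed, so 15 is not read as few or many. In 10 of the 15 pairs the direction was shared and in 5 it was opposite.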

How the data were processed

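Total RNA (5 ug per sample, per the labels' protocols) was labelled with biotin and hybridised to 12 one-colour arrays. The authors deposited 1 log2 value per probe set and array, and per the submitters' processing notes RMA and affy were used with no version stated there. Values ran from 1.59 to 15.2, and 0 pairs of arrays were identical. The 64 control probe sets served for quality alone, and 22746 were tested without a filter. The supplied annotation gave 1 gene to 13513 probe sets, several to 503 and none to 8730. Names of 13436 were updated through Entrez identifiers (RefSeq, TAIR10.1) and 77 kept the file's name.

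Group means were fitted on all 12 arrays in limma 3.58.1 (R 4.3.3; the moderated fit had 8 residual degrees of freedom and 1.05 from the prior), so WT changes share a spread with pft1-1. SE is the moderated standard error of a contrast. Adjusted p is Benjamini-Hochberg over all probe sets. Tables and plots used Python 3.11.15, pandas 2.3.3, scipy 1.17.1 and matplotlib 3.10.9. Letters come from the titles. Residuals of WT arrays sharing a letter correlated at 0.42 (A), 0.27 (B) and 0.53 (C), all over 0.1, so letters were taken to pair arrays. The genes named were the 20 largest rises and the 20 largest falls with exactly 1 gene and groups apart, up to 5 called members per list and direction, every member of lists of at most 6 genes where described, and 2 unnamed probe sets per direction. Uncalled members of larger lists, MED19A and the 5 genes known by a synonym lie outside this rule and were chosen after their values were seen, as were 2 of the 7 called TBL and cell wall genes and LTA3 beyond the limit of 5. The members and all 44 gene lists were chosen with earlier results of these data known, and several lists were completed or trimmed after the annotation and values had been seen, so they get counts and medians and no test of their own. The fit was tested on simulated data with independent noise on each array and no letter effect. Such data cannot show how the calls depend on single arrays. Alternatives were the letter as a block, WT arrays alone with and without it, an intensity trend, the upper 60% by mean, other scalings, array weights, stricter thresholds, 1 probe set per gene, a block for letter C, the first 2 letters alone, and each array left out.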

Additional observations from a re-analysis of the deposited data

Results flagged for a closer look

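The poly-A spike-in controls, which enter no comparison, averaged 4.84 on the WT 23C array of letter C and 5.83 on the WT 16C array of letter C on the log2 scale. On the WT arrays of letters A and B they averaged 2.51 to 2.54 at 23C and 2.46 to 2.5 at 16C, close to background. The part of this difference in the results was not tested. The fit with letter C as a block called 1094 of the 1112 probe sets, whose direction such a block leaves unchanged.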

How the results depend on the processing

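Counts moved with the alternatives. Of the 94 called probe sets named here, 92 kept their call with the letter block and 39 with the 6 WT arrays alone. Directions turned for 0 of the 94. Because their groups did not overlap, only the other scalings could have turned one. For WT 23C minus WT 16C (1112 called, 395 higher and 717 lower), the letter block gave 1859 (818 higher), letter C as a block 1704 (733 higher) and array quality weights 3353 (1496 higher, 1857 lower). The 6 WT arrays alone gave 348 (126 higher, 222 lower), and with the letter block 270 (109 higher, 161 lower). Letters A and B alone gave 481 (191 higher, 290 lower), 1 probe set per gene 550 (179 higher, 371 lower, from fewer features), an adjusted p under 0.01 229 (46 higher, 183 lower) and a log2 change of at least 1 673 (188 higher). Leaving out single arrays gave 381 to 1352 in all, 109 to 497 higher and 272 to 855 lower. For the difference between genotypes 0 were called, 35 with array weights, and 0 to 6 with 1 array left out. With the letter as a block, ACLB-1 and AT2G05540 lost their calls among the 94, with limma adjusted p-values of 0.0548 and 0.0534, and calls gained by genes described are given beside them. The number of arrays limits what can be called, and probe sets close to background understate a change.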
